A study of Homo sapiens with 12 samples.

Results

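The regions described are m6A peaks that the authors annotated to the 3' UTR, the stretch of an mRNA after the stop codon, on transcripts of protein-coding biotype. They were taken from 2 deposited peak lists, 1 per condition, by the annotation and biotype columns alone. The control list held 6568 such peaks among 39492 (16.6%, 95% exact binomial interval 16.3% to 17.0%) and the knockdown list 4669 among 28888 (16.2%, 15.7% to 16.6%). Of the 8970 rows of the authors' deposited table of differential peaks, 2012 were 3' UTR rows listed under a gene of those peaks, 1560 genes in all. These rows were taken with any transcript type. Intervals of shares cover counting error only. All libraries came from HGC27, a human cell line established from a gastric carcinoma. Control cells are wild type by the genotype label and negative controls of the knockdown by the protocol, and the other cells had FTO knocked down. The genotype label of the latter reads knockout, but FTO RNA remained. Each condition had 3 IP libraries, made from RNA fragments bound by an m6A antibody, and 3 input libraries, made from fragments before enrichment, 12 libraries in all. Titles of the knockdown libraries carry sh with a number from 1 to 3, and the labels do not say whether these are different hairpins or repeats of 1. They name no clone, no agent in the controls and no separate cultures, so the p-values speak of spread among these libraries only, and that spread may be technical.

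N6-methyladenosine (m6A) is the most common internal modification of mRNA. A writer complex built around METTL3 and METTL14 places it while the RNA is made, most densely around the stop codon and along the 3' UTR, and reader proteins of the YTH family bind it there and affect how long the mRNA lasts. FTO and ALKBH5 can remove it, and FTO also acts on the related mark m6Am beside the cap. The study's title ties FTO to ferroptosis, a cell death that depends on iron, and to HOXC8, MDM2 and p53.

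The targeted gene was low where its label says so. FTO RNA stood at 5.48, 5.68 and 5.52 FPKM in the control input libraries and at 0.786, 0.830 and 0.765 FPKM after knockdown, with no overlap. It fell by 1.87 on the log2(FPKM + 1) scale (limma, adjusted p = 4.99e-07). FTO and MDM2 had no 3' UTR peak among those described and no differential 3' UTR row. Values per library exist for input RNA only. Enrichment comes as 1 value per condition and m6A change as 1 value per row, so neither carries a replicate error here. FPKM of the 6396 genes in the table summed to between 74289 and 78461 per control library and between 83712 and 86902 per knockdown library. Input libraries correlated at Pearson 0.988 to 0.992 within a condition and 0.958 to 0.969 between conditions. Sequencing depth was unknown.

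Many of these peaks were listed under a neighbouring gene. Each row of the peak lists names both the gene on whose exons the peak was called and a listed gene, whose symbol heads the row. The 2 were the same gene for 70.1% of the control 3' UTR peaks (69.0% to 71.2%) and 70.6% of the knockdown ones (69.3% to 71.9%). For 5' UTR peaks on protein-coding transcripts the shares were 94.9% and 94.2%. In the RefSeq annotation, 98.0% of control and 98.2% of knockdown 3' UTR peaks lay within the span of the gene they were called on, against 75.02% and 75.4% for the listed gene. Of the called genes with a RefSeq match, 99.5% (control) and 99.4% (knockdown) of peaks fell on protein-coding ones, as the label says. Thus the 3' UTR peak of ZNF329 was listed under ZSCAN18, that of SYMPK under RSPH6A and that of UHRF1 under KDM4B. Genes are named below by the gene the peak was called on unless a listed gene is stated. The differential table gives the listed gene only: 79.2% of its 3' UTR rows (1563 of 1973 that could be placed) lay in the span of that gene. The FPKM beside the other 410 rows belong to a gene whose RefSeq span does not hold the peak. Some of these, such as rows of TOR1AIP1 and ELK4, were still called on the listed gene.

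The annotation that chose these peaks also sets their place in the gene, so distances are given as a description. The middle of the peak lay a median of 2154.5 bp (control) and 2054 bp (knockdown) of genome from the 3' end of the gene it was called on. For 5' UTR peaks the medians were 27976 and 25056.5 bp. Within 1000 bp of that end lay 31.4% of control and 31.0% of knockdown 3' UTR peaks, against 0.679% and 0.848% of 5' UTR peaks and 5.77% and 5.204% of peaks annotated to other exons. The share nearer to the 3' than to the 5' end of the gene was 84.6% and 85.6%. Some peaks annotated as 3' UTR lay far from the end of the gene: the peak of ZCCHC2 described below was 62446.5 bp from it. The transcript behind that label was not checked.

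**Figure D1:**
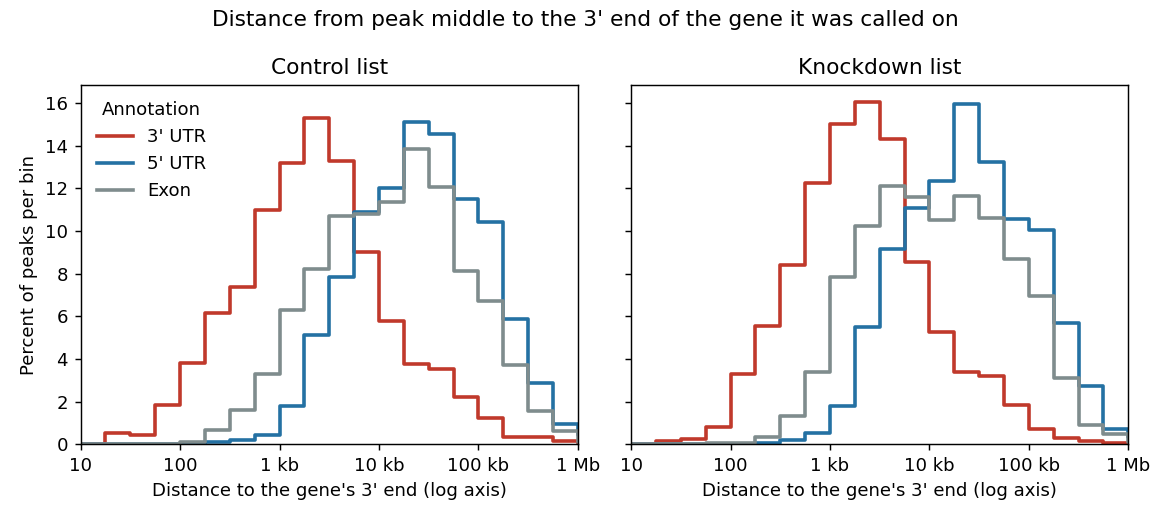
Percent of peaks on protein-coding transcripts (vertical axis) by genomic distance from the peak's middle to the 3' end of the RefSeq gene it was called on (horizontal axis, log scale, 10 bp to 1 Mb), for 3' UTR, 5' UTR and other exon peaks of the control list (left) and the knockdown list (right). The 3' UTR curves lie left of the others in both lists, with medians of 2154.5 and 2054 bp.

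These peaks were wider than 5' UTR peaks and more often had a low adjusted p. Their median fold enrichment, the authors' ratio of IP over input, was 6.20 in the control list (quartiles 3.16 and 11.8) and 7.82 in the knockdown list (4.06 and 14.5). 5' UTR peaks had medians of 6.11 and 7.05, and peaks of other exons 5.76 and 7.10. Enrichment of at least 10-fold was listed for 31.6% and 39.7% of 3' UTR peaks, against 25.7% and 36.0% of 5' UTR peaks. The 3' UTR peaks covered a median of 421 and 359 exonic bp, against 299 and 269 bp for 5' UTR peaks, and 72.9% and 78.2% were a single unspliced block. An adjusted p of at most 1e-05 was given for 72.6% of control and 89.8% of knockdown 3' UTR peaks, and for 58.7% and 76.1% of 5' UTR peaks. Enrichment thus ran somewhat higher in the shorter, knockdown list for all 3 annotations. With 1 list per condition, a difference between the lists has no replicate check.

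**Figure D2:**
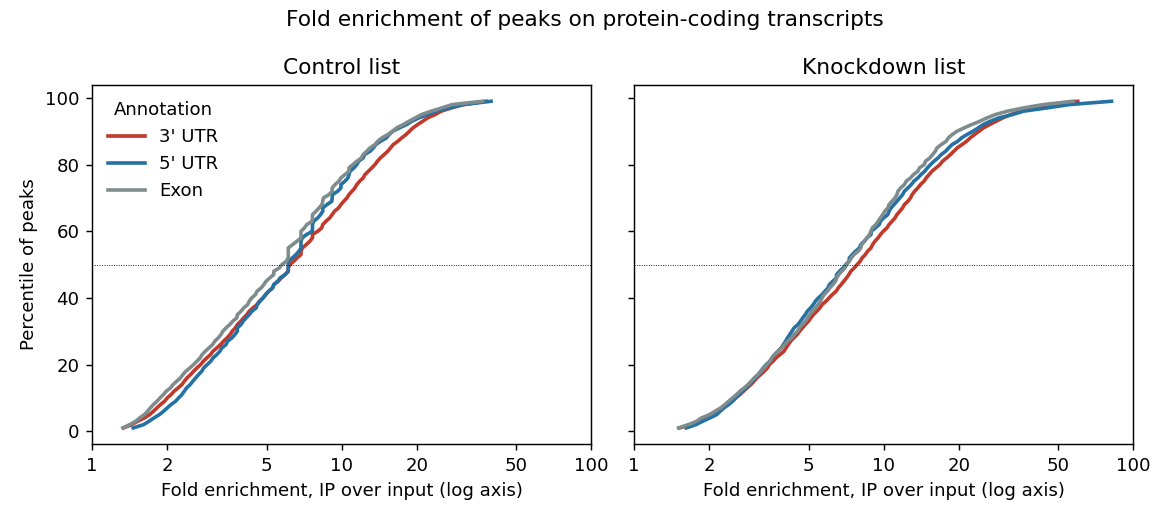
Fold enrichment of IP over input (horizontal axis, log scale) at each percentile of peaks (vertical axis) on protein-coding transcripts, by annotation, in the control list (left) and the knockdown list (right). The dotted line marks the median, which for 3' UTR peaks was 6.20 and 7.82, and the 3' UTR curve lies to the right of the others at the 75th and 90th percentiles of both panels (11.8 and 18.7-fold, 14.5 and 24.1-fold), while at the 99th the 5' UTR curve is further right.

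The highest enrichment was on OLIG2, which encodes a transcription factor of the oligodendrocyte and motor neuron lineages (GRCh38 chr21:33027607-33028381, 795-fold in the control list; 955-fold in the knockdown list). Of the 10 genes with the highest mean over both lists, 8 had a higher value in the knockdown list than in the control list by more than 1.5-fold. ZNF205, a zinc finger gene, stood at 219-fold and 351-fold (chr16:3120278-3120517). SYMPK, the scaffold of the cleavage and polyadenylation machinery, stood at 69.5-fold and 261-fold (chr19:45815410-45816489). ZNF329 was the exception in direction, at 273-fold in the control list and 128-fold in the knockdown list (chr19:58126518-58127177). The other 6 were ZCCHC2 (47.5-fold and 218-fold), RPRML (66.0-fold and 165-fold), UBALD2 (75.5-fold and 135-fold), the kinase gene DAPK3 (55.6-fold and 130-fold), the transcription factor gene BCL11B (59.8-fold and 113-fold) and CIITA, the transactivator of MHC class II genes (39.5-fold and 132-fold). The number of reads behind these ratios is unknown here.

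Most genes held 1 such peak. Of the 4432 genes with a 3' UTR peak in the control list, 3014 had 1, 978 had 2 and 440 had 3 or more. In the knockdown list 2384 of 3314 genes had 1, 654 had 2 and 276 had 3 or more. The genes with the most were TMED3, C15orf40 and PAICS (8 each), ORAI2 and FEM1A (7 each) in the control list. PAICS, an enzyme of purine synthesis, had 8 peaks of 1.40-fold to 5.19-fold in the control list and 1 in the knockdown list. RNF215 and ZDBF2 had 10 each in the knockdown list, where CALN1 had 8 and JPH2 and OPA3 had 7 each. JPH2, which tethers the plasma membrane to the sarcoplasmic reticulum, had the highest single value of these, 142-fold. RNF215 had 7 such peaks and ZDBF2 5 in the control list as well.

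By chromosome, the share of RefSeq protein-coding genes with a 3' UTR peak in either list was 22.0% overall (4400 of 19974), from 15.1% on chromosome 21 to 29.6% on chromosome 19. Chromosome 20 (29.2%) and chromosome 9 (27.4%) stood next to chromosome 19.

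Nearly all 3' UTR peaks of the knockdown list had a counterpart in the control list. A control peak of any kind overlapped 93.7% (93.0% to 94.4%) of them by at least 1 bp. In the other direction, 64.4% (63.2% to 65.5%) of control peaks had a knockdown peak on them. For 5' UTR peaks the shares were 83.3% and 65.4%, and for other exon peaks 88.4% and 56.5%. Genes with a 3' UTR peak numbered 3102 in both lists, 1330 in the control list only and 212 in the knockdown list only. A gene counted in 1 list only can still have a peak of another label in the other list. CXCR4 had no such knockdown peak, but the knockdown list held a 14.6-fold peak at its differential row. Control peaks without a counterpart were weaker and shorter, with a median of 3.64-fold and 181 bp, against 8.49-fold and 627 bp for the rest. The share of control peaks with a counterpart was 37.4% under 3-fold, 61.4% from 3 to 10-fold and 88.4% from 10-fold upward.

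Peaks found once in each list had similar heights. Over 2746 such 3' UTR pairs the median log2 ratio of knockdown over control enrichment was 0.13 (quartiles -0.25 and 0.53). The knockdown value was higher in 59.1% (57.2% to 60.9%) of pairs, and the values lay within 1.5-fold of each other in 66.4% (64.6% to 68.2%). Among 1607 5' UTR pairs the median log2 ratio was 0.32, 67.6% (65.3% to 69.9%) were higher and 51.6% (49.2% to 54.1%) lay within 1.5-fold. Among 1050 other exon pairs these values were 0.23, 63.1% and 56.2%. The rank correlation of the 2 lists over pairs was 0.835 for 3' UTR, 0.732 for 5' UTR and 0.764 for other exon peaks, as a description across peaks that share their libraries. Height therefore moved less at 3' UTR than at 5' UTR peaks between these 2 lists, without a replicate check.

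**Figure D3:**
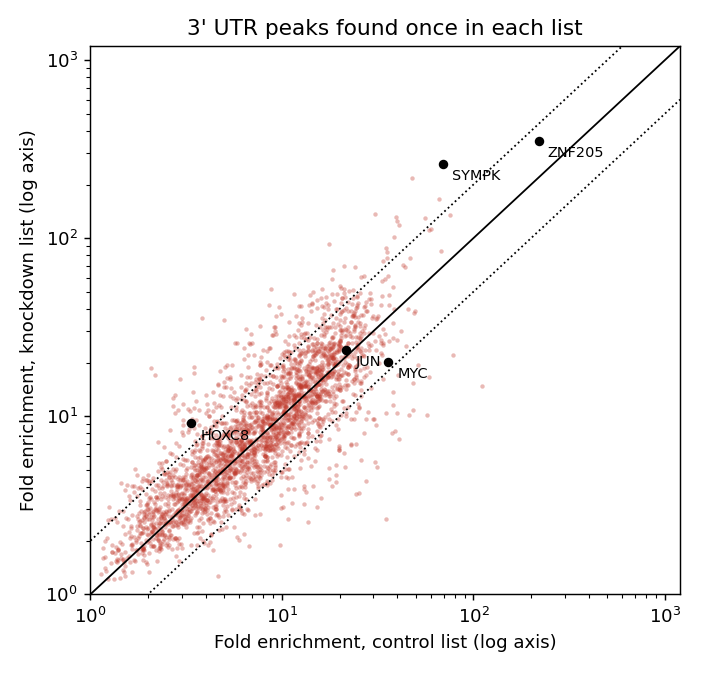
Fold enrichment in the knockdown list (vertical axis, log scale) against the control list (horizontal axis, log scale) for the 2746 3' UTR peaks found once in each list, with the line of equality (solid) and 2-fold lines (dotted). Most points lie between the dotted lines, with 14.4% outside, and HOXC8 and SYMPK lie above while MYC lies below the line of equality.

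In the authors' deposited table, 3' UTR rows moved in both directions in near-equal numbers. m6A was higher after knockdown in 1085 rows and lower in 927 (53.9% higher, 51.7% to 56.1%), where 55.4% of all 8687 rows with a gene name were higher. Of the 916 rows on 5' UTRs of protein-coding transcripts 67.8% (64.7% to 70.8%) were higher, and of 634 rows on other exons 60.3% (56.3% to 64.1%). The median size of the change was 0.60 on the log2 scale for 3' UTR rows, against 0.85 for 5' UTR rows and 0.72 for all rows that are not among those described. The 3' UTR rows were not limited to protein-coding transcripts as the 5' UTR and other exon rows were. They include rows on retained introns, such as those of PHLDB1 and KIF13A, so the sets compared are not alike. Changes of at least 1 on the log2 scale were listed for 211 rises and 161 falls. All rows had p of at most 0.049 in the authors' deposited table, but the adjusted p was over 0.05 in 178 of them. More than 1 row was listed for 348 genes, all higher in 148, all lower in 87 and mixed in 113. At HILPDA, which encodes a lipid droplet protein, 1 row was listed at -0.53 and another at 0.18.

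The largest rises among genes of at least 1 FPKM included a chromatin gene whose row had no peak in either list. ARID1B, a subunit of SWI/SNF remodelling complexes, had a row at 3.87 on the log2 scale (chr6:157071309-157071519, p = 0.00646) in the authors' deposited table. In the authors' deposited table PHLDB1 followed at 2.66 (chr11:118645742-118646490, p = 6.31e-52). It had a 6.77-fold peak there in the knockdown list and none in the control list. The same rows of the authors' deposited table put MAD1L1, a spindle checkpoint gene, at 2.03 and STK11, which encodes the kinase LKB1, at 1.96 (chr19:1227592-1227832, p = 2.51e-13). STK11 had a 4.10-fold knockdown peak and no control peak there. A row listed under DEXI at 2.00 coincides with the CIITA peak described above, and these genes overlap, so the row cannot be placed on one of them. C11orf45, FAM193B, AHRR (the repressor of the aryl hydrocarbon receptor), EHMT1 (a histone H3K9 methyltransferase) and a row listed under PDAP1 made up the rest, at 1.73 to 1.89. Like that of ARID1B, the rows of MAD1L1 and FAM193B had no peak in either list. The transcript type was retained intron for ARID1B and PHLDB1, and processed transcript for MAD1L1 and EHMT1. Of the 10 rises none but that of ARID1B had p over 0.000145 in the authors' deposited table.

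Of the 10 largest falls 4 were listed under a neighbouring gene, and the smallest p among all 10 was 0.00166 in the authors' deposited table. A row listed under DCAF7 stood at -3.46 on the log2 scale in the authors' deposited table (p = 0.00776), but its peak was called on the potassium channel gene KCNH6. In the authors' deposited table, rows listed under PRICKLE3 and HHIPL2 stood at -3.28 and -2.76, and their peaks were called on SYP and TAF1A. Among rows whose peak was called on the listed gene, the authors' deposited table put the receptor gene NOTCH2 at -3.01 (chr1:120051646-120054136, p = 0.00851), DTWD1 at -2.39, TOR1AIP1, of the inner nuclear membrane, at -2.36, the kinesin gene KIF13A at -2.14 and the transcription factor gene ELK4 at -1.96 (p = 0.0417). The rows of TOR1AIP1 and ELK4 lay outside the RefSeq span of those genes. For the rows listed under PRICKLE3, DTWD1 and ELK4 the adjusted p in the authors' deposited table was over 0.05. The lowest value, -3.51, was listed for FP565260, which had no RefSeq match. NOTCH2 had a control peak of 22.1-fold and no knockdown peak at that row. Its RNA stood at 19.6, 19.1 and 19.3 FPKM in controls and 20.6, 20.3 and 21.1 FPKM after knockdown, with no overlap, and did not pass the test (limma, adjusted p = 0.0544).

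HOXC8, the homeobox gene the study names, had 1 such peak in each list at the same place, 3.36-fold in the control list (chr12:54011188-54011457) and 9.10-fold in the knockdown list (chr12:54011158-54011486). The authors' deposited table listed m6A there 1.18 higher on the log2 scale (p = 6.61e-04). HOXC8 RNA stood at 1.23, 0.969 and 1.14 FPKM in controls and at 0.575, 0.448 and 0.558 FPKM after knockdown. The groups did not overlap, and the mean was too low for the gene to enter the test.

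Of 39 HOX genes, which set positional identity along the body axis, 25 had one in either list, 16 in both, beside 22.0% of all RefSeq protein-coding genes. HOXC11 had the highest, 46.7-fold, in the control list only, and HOXC12 had a 27.5-fold control peak, where the knockdown list had a 4.31-fold one. In the authors' deposited table, 11 HOX 3' UTR rows were 3 higher and 8 lower. The same rows of the authors' deposited table put HOXD8 at -0.93 (p = 2.45e-05), HOXA3 at -0.93, HOXB8 at -0.86 and HOXC13 at -0.60, against HOXD9 at 0.69 (p = 3.63e-04) and a HOXC6 row at 0.27. Of the 11 rows 10 lay in the listed gene's span, the other being a second HOXC6 row, at -1.29 (p = 0.0282 in the authors' deposited table). Neighbouring HOX genes share transcripts and exons, so their rows are not independent. Of 8 HOX genes tested for RNA, 1 rose and 3 fell as deposited, where 24.5% of all tested genes rose and 37.9% fell. Quantile-normalized values gave 4 rises and 2 falls, and median-centred ones gave 2 of each. HOXC13 fell from 8.89, 9.81 and 9.90 to 7.25, 7.60 and 7.08 FPKM (limma, log2 change -0.34, adjusted p = 8.02e-04) and HOXB8 from 1.87, 1.55 and 1.77 to 0.981, 0.941 and 0.579 FPKM (limma, log2 change -0.58, adjusted p = 0.00128), each with no overlap. The third that fell, HOXD9, had adjusted p = 0.0351 in limma and between 0.0763 and 0.112 when control library 1, control library 3, knockdown library 1 or knockdown library 3 was left out.

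Immediate early genes, which are switched on within minutes of growth signals and encode short-lived mRNAs, had 3' UTR peaks in 15 of 26 cases, 14 of them in both lists. This count and those of the gene lists below are to be read beside 22.0% of all RefSeq protein-coding genes. Some lie near that share, and none was tested against it. IER5 stood at 16.2-fold and 51.8-fold (chr1:181088789-181090726) and JUND at 27.6-fold and 34.5-fold. MYC, the growth-promoting transcription factor gene, stood at 36.0-fold and 20.1-fold. In the authors' deposited table MYC was listed 0.17 lower on the log2 scale (p = 1.26e-14), while JUN was 0.74 higher (p = 3.16e-39) and FOS 0.47 higher (p = 5.01e-25). EGR1 had 1 row at 0.18 and 1 at -0.66. MYC RNA rose from 52.2, 52.8 and 55.1 to 76.0, 72.7 and 74.96 FPKM, with no overlap (limma, log2 change 0.47, adjusted p = 5.23e-05). DUSP1, a phosphatase that shuts off MAP kinases, also rose (11.96 ± 0.655 FPKM in controls, 17.6 ± 0.972 after knockdown; SD, n = 3), by 0.52 on the log2 scale in limma (adjusted p = 1.42e-04), and its row was listed at -0.33. EGR1 RNA stood at 19.3 ± 1.03 FPKM in controls and 15.2 ± 0.729 after knockdown (SD, n = 3), a fall in limma (adjusted p = 0.00106). JUN (14.98 to 17.1 FPKM, limma adjusted p = 0.0165) and FOS (19.6 to 17.0 FPKM, 0.0299) passed with all libraries. JUN had adjusted p = 0.0511 without control library 1 and 0.0518 without knockdown library 1, and FOS between 0.0787 and 0.106 when control library 1, control library 2, knockdown library 2 or knockdown library 3 was left out.

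Feedback inhibitors of signalling had 3' UTR peaks in 12 of 20 cases. The ubiquitin ligase gene ZNRF3, which removes WNT receptors, stood at 30.9-fold and 77.8-fold, with its peak listed under KREMEN1. SPRED2, an inhibitor of RAS signalling, stood at 19.9-fold and 25.4-fold. Of the SOCS genes, which restrain cytokine receptors, SOCS3 stood at 14.9-fold and 20.7-fold. SOCS4, SOCS5 and SOCS6 had peaks of 14.4-fold to 19.5-fold in the control list. In the knockdown list they had no 3' UTR peak on a protein-coding transcript, and peaks of other labels were not counted. SOCS1 was listed 0.51 higher in the authors' deposited table (p = 0.0339), and PTCH1, the Hedgehog receptor, had 1 row at 0.75 and 1 at -0.38.

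Of 12 writer genes 6 had 3' UTR peaks, each in both lists: METTL14 (14.8-fold and 14.4-fold), RBM15 (18.4-fold and 21.5-fold), WTAP (9.21-fold and 7.85-fold), RBM15B, CBLL1 and PCIF1. The authors' deposited table listed RBM15B 0.24 higher (p = 7.94e-23) and RBM15 0.09 higher (p = 1.35e-04). RBM15B RNA stood at 10.4 ± 0.406 FPKM in controls and 12.4 ± 0.479 after knockdown (SD, n = 3), a rise in limma (adjusted p = 0.00296). Of 16 eraser and reader genes YTHDF1 (7.92-fold and 8.82-fold) and YTHDF3 (1.65-fold, control list only) had a peak, and none had a differential 3' UTR row.

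Of 20 cleavage and polyadenylation genes 6 had peaks, led by SYMPK and by WDR33, which binds the polyadenylation signal (49.8-fold and 39.2-fold, listed under LIMS2). A peak called on SFT2D3 had nearly the same values (49.2-fold and 37.9-fold), and another WDR33 peak was listed under SFT2D3. Whether the WDR33 and SFT2D3 peaks are the same stretch was not checked. PABPN1, the nuclear poly(A)-binding protein, was listed at -0.54 in the authors' deposited table. Its RNA stood at 16.6 ± 0.474 FPKM in controls and 20.3 ± 0.143 after knockdown (SD, n = 3), a rise in limma (adjusted p = 4.90e-04). Among 28 deadenylation and decapping genes 8 had peaks, BTG2, an antiproliferative deadenylation cofactor, at 10.6-fold and 8.60-fold. TOB2, which recruits the deadenylase, went from 8.65-fold to 24.3-fold, was listed 0.92 higher (p = 1.00e-102) in the authors' deposited table and had RNA of 13.2 and 13.7 FPKM, which did not pass the test (limma, adjusted p = 0.363). After median-centring, TOB2 RNA was called as a rise. Of 24 genes for 3' UTR-binding proteins 8 had peaks, among them ZFP36L2, an AU-rich element binder (37.8-fold and 53.2-fold). A weaker stretch of the same UTR was listed at -0.56 (p = 1.26e-17) in the authors' deposited table. QKI, an RNA-binding regulator of splicing and stability, was listed at 0.47 in the authors' deposited table, with an adjusted p over 0.05. QKI RNA stood at 10.4 and 8.52 FPKM (limma adjusted p = 0.0105, 0.0507 after median-centring). In the microRNA pathway 3 of 14 genes had peaks. TNRC6A, a scaffold of silencing, stood at 34.6-fold in both lists, and AGO1 had 5 control and 2 knockdown peaks of at most 3.23-fold, listed under its neighbour AGO3.

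Among 21 ferroptosis suppressors 3 had a 3' UTR peak, beside 22.0% of all RefSeq protein-coding genes: FTH1, the ferritin heavy chain that stores iron (2.70-fold and 3.67-fold), NFS1, the cysteine desulfurase for iron-sulfur clusters (13.7-fold and 8.02-fold), and NFE2L2, the antioxidant regulator NRF2 (6.45-fold, control list only). FTH1 was listed 0.56 higher in the authors' deposited table with a p given as 0. Its RNA stood at 592, 566 and 612 FPKM in controls and at 713, 705 and 723 FPKM after knockdown, a rise with no overlap (limma, log2 change 0.27, adjusted p = 0.00182) that had adjusted p = 0.0898 after quantile normalization. Of 20 ferroptosis drivers and markers 6 had peaks, each in both lists. KEAP1, through which NRF2 is marked for degradation, stood at 2.67-fold and 4.29-fold and was listed 0.37 higher (p = 5.01e-27) in the authors' deposited table. KEAP1 RNA rose from 20.9, 22.1 and 23.6 to 34.5, 33.4 and 34.8 FPKM, with no overlap (limma, log2 change 0.60, adjusted p = 5.05e-05). CHAC1, which degrades glutathione, stood at 13.4-fold and 17.2-fold and had no differential row. STEAP3, a ferrireductase, had 2 rows, at -0.33 and -0.65.

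Among 24 p53 targets 6 had 3' UTR peaks, each in both lists, led by GADD45B (13.7-fold and 23.2-fold) and PPM1D, a phosphatase that acts on p53 (12.7-fold and 16.8-fold, listed under BCAS3). Of the p53 list, 1 row was higher and 2 were lower in the authors' deposited table. SESN2, a stress-induced inhibitor of mTORC1 signalling, was listed 0.34 higher (p = 3.55e-06) in the authors' deposited table, TP53INP1, a stress-induced p53 cofactor, at -0.555 (p = 0.0112), and a row listed under GDF15, outside that gene, at -1.08 (p = 0.049). SESN2 RNA rose from 19.7, 19.5 and 19.3 to 30.5, 29.3 and 31.9 FPKM (limma, log2 change 0.62, adjusted p = 2.62e-05). In the TGF-beta pathway 2 of 18 genes had peaks, and the authors' deposited table had 1 higher and 4 lower rows, 2 of them at SMAD4 (-0.516 and -0.463). Only 3 of these rows lay in the listed gene's span. The only higher row, listed under TGFB1 (0.641), and the row listed under SMAD2 (-1.08) did not. At the SMAD4 row of -0.516 the lists held 2.72-fold (control) and 18.7-fold (knockdown) peaks, opposite in direction to the row. The receptor gene TGFBR1 stood at 12.4-fold and 6.71-fold and was listed at -0.69 (p = 3.16e-17) in the authors' deposited table. TGFBR1 RNA stood at 10.9, 10.9 and 9.13 FPKM in controls and 8.13, 8.65 and 8.30 FPKM after knockdown, with no overlap (limma, log2 change -0.27, adjusted p = 0.00938). Of 15 transcripts linked to FTO in published work 7 had peaks, led by MYC and UHRF1 (18.5-fold and 25.4-fold). CEBPA, a transcription factor gene of the same list, was listed at 0.264 in the authors' deposited table, and CXCR4, a chemokine receptor gene, at -0.47. CXCR4 RNA stood at 1.86 and 1.28 FPKM (limma adjusted p = 0.0122, 0.183 after quantile normalization). Of 9 gastric epithelial markers MUC1 had a 3' UTR peak. Among markers of other cell types, DCN of 8 fibroblast and CD14 and CD68 of 8 immune markers had one. None of these lists had a differential 3' UTR row. A peak shows a transcript enriched in the IP, so absence of a peak says nothing on whether these genes are expressed.

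Input RNA of the listed genes changed about as often as in the whole table. Of the 1560 genes listed with a differential 3' UTR row, 1241 had a mean of at least 1 FPKM and were tested, and 761 passed (61.3%, 58.5% to 64.0%), where 62.4% of all 4515 tested genes did. Of these, 309 rose and 452 fell, where 24.5% of all tested genes rose and 37.9% fell. The balance of direction moved with scaling and with the filter on low values: rises made up 40.6% of the calls as deposited. Their share was 54.2% with quantile-normalized values (415 up, 350 down) and 57.0% with median-centred ones (436 up, 329 down). With a minimum of 5 FPKM, 223 rose and 219 fell. The median change over all tested genes was -0.07, 0.01 and 0.02 on the log2 scale under the 3 scalings. All knockdown values lay on one side of all control values for 67.0% of these genes, against 67.8% of all. Most changes were small, with a median size of 0.33 on the log2 scale among called genes, 2 rises and 9 falls of at least 1. Since bulk RNA was measured, less RNA per cell and fewer cells of a type cannot be told apart. Among the 1053 tested genes whose row lay in their own span, 258 rose and 397 fell.

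**Figure D4:**
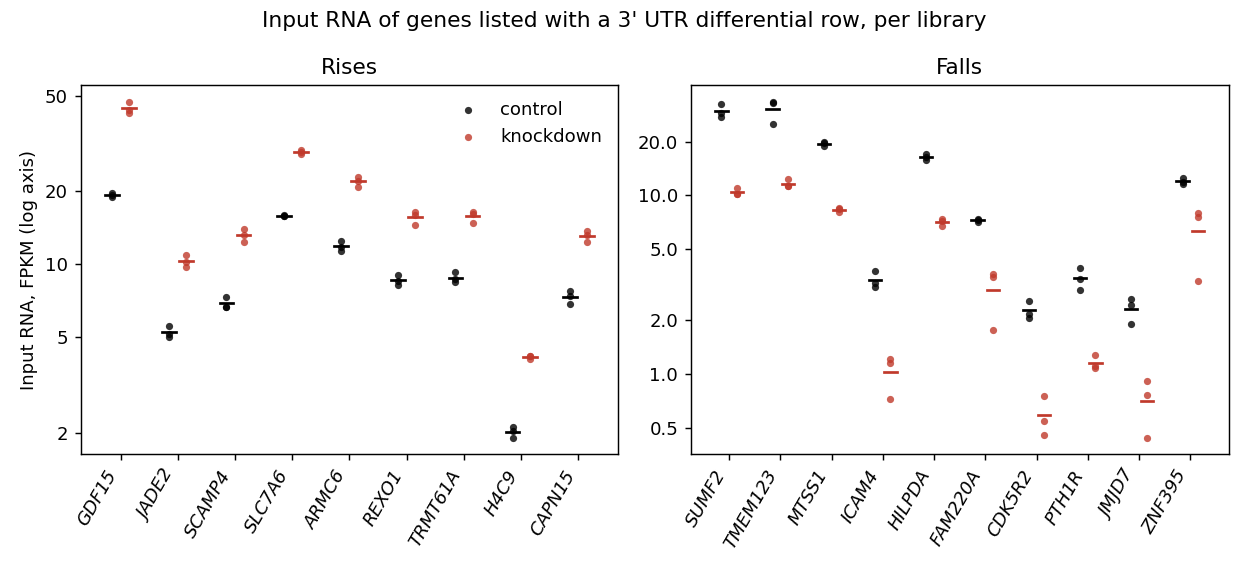
Input RNA in FPKM (vertical axis, log scale) for 9 of the 10 largest rises (left) and the 10 largest falls (right) on the log2(FPKM + 1) scale among genes listed with a differential 3' UTR row, with 1 point per library and the mean of each group as a bar. Control (black) and knockdown (red) points do not overlap for any of these genes, and knockdown library 1 lies below the other 2 at ZNF395 and knockdown library 3 at FAM220A.

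Among the largest rises with the peak in the gene's own span, ARMC6 went from 11.3, 11.8 and 12.4 to 22.97, 21.0 and 22.1 FPKM (limma, log2 change 0.84, adjusted p = 1.58e-05). In the authors' deposited table its row stood at 1.34 (p = 1.00e-110). JADE2, a subunit of a histone acetyltransferase complex, went from 5.201 ± 0.285 to 10.3 ± 0.591 FPKM (SD, n = 3) with a row at -0.34. SLC7A6, an amino acid transporter, rose 1.84-fold by the ratio of means, TRMT61A, a tRNA methyltransferase for m1A, 1.80-fold, CAPN15 1.78-fold and the histone gene H4C9 2.05-fold. The 2 rows of SCAMP4, which rose 1.91-fold, were called on ADAT3 and lay within the span of SCAMP4. In the authors' deposited table the row of H4C9 stood at -1.38, and those of SLC7A6, TRMT61A, CAPN15 and SCAMP4 at 0.309 to 0.95. GDF15, a stress-induced secreted factor, rose 2.30-fold and REXO1 1.83-fold, but their rows held peaks of the neighbours PGPEP1 and KLF16.

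Among the largest falls, TMEM123, a membrane protein gene, went from 33.5, 33.1 and 25.1 to 11.3, 12.4 and 11.2 FPKM (limma, log2 change -1.31, adjusted p = 4.31e-05). Control library 3 was lower than the other controls and still above every knockdown library. Its row was listed at -1.40 in the authors' deposited table (p = 2.40e-04). MTSS1, which shapes actin at the membrane, went from 19.8, 19.7 and 18.9 to 8.46, 8.40 and 8.03 FPKM (limma, log2 change -1.14, adjusted p = 2.03e-06). It was listed with 3 rows, from -0.715 to 0.57, the last called on NDUFB9. HILPDA RNA fell from 16.5 ± 0.602 to 7.11 ± 0.318 FPKM (SD, n = 3), ICAM4 3.27-fold, CDK5R2 3.87-fold and PTH1R, the parathyroid hormone receptor, 2.96-fold. In the authors' deposited table the row of CDK5R2 stood at -0.528, that of ICAM4 at 0.514 (p = 0.049) and that of PTH1R at 0.853. FAM220A went from 7.41, 7.25 and 7.08 to 3.63, 3.50 and 1.77 FPKM and ZNF395 from 12.5, 11.97 and 11.6 to 3.32, 7.60 and 8.01 FPKM, each with 1 low knockdown library. Their rows were listed higher in the authors' deposited table, at 0.559 and 0.569 for FAM220A and 0.454 for ZNF395. SUMF2 fell 2.82-fold and JMJD7 3.29-fold, but their rows held peaks of CCT6A and MAPKBP1.

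m6A and RNA moved together only weakly across genes. Of genes whose 3' UTR rows were all higher in m6A, 619 were tested for RNA, and 172 rose and 195 fell (46.9% of calls up, 41.7% to 52.1%). Of those whose rows were all lower, 527 were tested, and 113 rose and 223 fell (33.6% up, 28.6% to 39.0%). Among the genes of the table with no such 3' UTR row the shares were 46.5% (43.5% to 49.5%) and 27.3% (24.3% to 30.6%). The rank correlation between mean m6A change and RNA change was 0.159 over 1241 genes (Pearson 0.130), and 0.188 (Pearson 0.155) over the 3274 other genes, as descriptions across genes. With only rows in the listed gene's own span the shares were 45.3% and 32.6%. After quantile normalization they were 58.9% and 49.1%, and after median-centring 63.4% and 49.7%, so the share of rises was higher beside higher m6A under each of the 3 scalings. The m6A values are set against the same input libraries that give the RNA values, so the 2 measures are not independent.

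**Figure D5:**
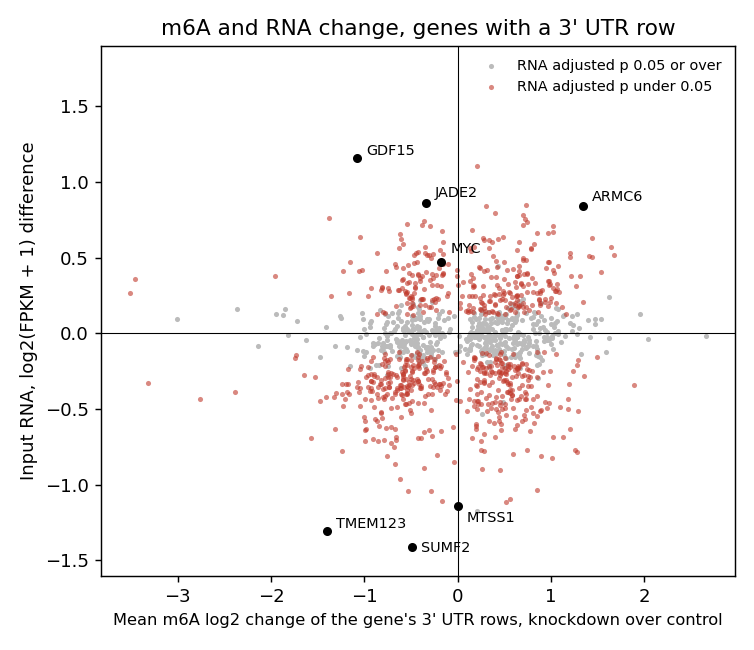
Difference of input RNA on the log2(FPKM + 1) scale (vertical axis) against the mean log2 change of m6A over a gene's differential 3' UTR rows (horizontal axis), knockdown over control, for the 1241 tested genes. Red points passed limma at an adjusted p under 0.05, grey points did not, black points are named genes, and all 4 quadrants hold many called genes.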

How the data were processed

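The 12 libraries were grouped by their titles. Per the submitters' processing notes the tools included StringTie 1.3.0, HISAT2 2.0 and Bowtie 0.12.2, with no roles stated. The peak caller is not given in the sources used here. A mouse build appears in the notes, but the gene symbols and positions are human and 98.0% of the control peaks lay in the GRCh38.p14 RefSeq span of their gene, hence coordinates are printed unchanged as GRCh38 positions counted from 1. Per the file headers, expression was deposited as FPKM per input library, for genes with a differential peak only. Per the file headers, each peak list gives the fold enrichment as a ratio and scores (log10 p and adjusted p), and the differential table gives a log2 fold change, a p-value and a score. The deposited log2 values are control over knockdown and were turned: over 1494 3' UTR rows with a peak in both lists, its rank correlation with knockdown over control enrichment was -0.789. In the knockdown list 3 repeated rows were dropped, and 283 differential rows without a gene name were not used. RefSeq spans were matched by symbol and chromosome, for 98.1% of listed and 96.3% of called genes of the control peaks.

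FPKM were tested as log2(FPKM + 1), which understates the change of low genes, where the mean over libraries reached 1 FPKM, with limma 3.58.1 (two-sided, with a mean-variance trend and without a block) in R 4.3.3 over all 4515 such genes, with Benjamini-Hochberg adjustment over all of them. On simulated data on these 4515 genes it recovered 95 of 100 changes of 0.5 and 97 of 100 of 1 on the log2 scale, and 10 of 202 calls were false. The simulation changed 200 genes, with independent normal noise and no shift common to all genes. In the data 62.4% of genes were called, so the simulation does not give the error rate of those calls. Peaks were compared with bedtools 2.31.1 on exonic blocks, strands not contradicting. Lists overlap by 1 bp or more unless stated.

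The members, the 18 gene lists, the naming rule and the alternatives were chosen with earlier results of these data known. Named were FTO, HOXC8 and MDM2, the 10 genes with the highest mean enrichment (adjusted p of at most 1e-05 in both lists), the 5 with the most peaks per list, the 10 largest rises and falls of m6A (at least 1 FPKM) and of RNA (called, no overlap), and in each list the 2 with the smallest p and the 2 with the highest enrichment. Other list members were named after their values were seen. No sequence is shown, since no genome of the build was used here. For 3 of the genes so chosen the results are not reported here.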

Additional observations from a re-analysis of the deposited data

How the results depend on the processing

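FTO kept its fall in input RNA, -1.89 to -1.86 on the log2 scale when each library was left out in turn. The same omissions gave 269 to 329 rises and 391 to 488 falls among genes with a differential 3' UTR row. Replicate numbers did not pair the libraries (correlations of -0.077, 0.028 and 0.025 between same-numbered control and knockdown libraries). With the replicate block, limma gave 300 rises, 447 falls and -1.87 for FTO. A minimum of 5 FPKM left 223 rises and 219 falls, with fewer genes tested. The share of rows with higher m6A was 56.7% at a log2 change of at least 1 and 56.9% where adjusted p was 0.01 or less. At least 4-fold enrichment left 4361 control peaks, and any transcript biotype gave 18791 control and 13424 knockdown peaks. Median enrichment in the control list was 7.305 (adjusted p of at most 1e-05), 9.62 (4-fold) and 5.89 (any biotype), and in the knockdown list 8.18, 10.5 and 7.28. The share of control peaks with a counterpart was 45.3% (50% reciprocal overlap), 80.9% (adjusted p of at most 1e-05) and 59.2% (3' UTR peaks only), and of knockdown peaks 61.9%, 97.0% and 89.9%. Rises among RNA calls beside higher m6A made up 58.9% (quantile normalization), 63.4% (median-centring), 53.5% (5 FPKM) and 69.4% (the authors' q-values), and beside lower m6A 49.1%, 49.7%, 47.5% and 56.7%. These shares moved with scaling and filter, and the cause was not tested. Of 550 values for 47 named genes that passed, 31 lost the call, in 10 genes, and none of the 550 changed sign. Among 24 named genes that did not pass, 10 changed sign and 15 passed in at least 1 setting. Sequencing depth was unknown, and enrichment and m6A values had no replicates.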
